A study of Mus musculus with 20 samples.

Results

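The genes described here encode translation initiation factors of the mouse, their subunits and their direct regulators. They were chosen by name: every autosomal protein-coding gene of the RefSeq gene table for GRCm38.p6 (the mm10 build) whose symbol begins with Eif1, Eif2, Eif3, Eif4, Eif5 or Eif6, which gave 53 of 21887 protein-coding genes. H3K27ac, the acetylated form of lysine 27 of histone H3 found at promoters and enhancers in use, was measured by chromatin immunoprecipitation and sequencing in hepatocytes perfused from livers of C57BL/6N mice aged 5 months (young, 5 libraries) and C57BL/6J mice aged 23 months (old, 5 libraries). The labels name no transgene, deletion or treatment in either group. Each of the 10 libraries has a list of acetylated regions with its tags, the sequenced fragments counted in a region, scaled by the authors to 10000000 per library. Age and substrain coincide, so their parts cannot be told apart. Whether every library has a mouse of its own is not stated in the labels, so the p-values measure only the spread between these samples, which may be technical.

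Initiation brings the initiator tRNA and the small ribosomal subunit to the start codon of an mRNA. eIF4F binds the cap and unwinds the leader, eIF3 and eIF2 load the subunit with tRNA, eIF1, eIF1A and eIF5 select the start codon, and eIF5B joins the large subunit. Supply is set at the cap, where the 4E-binding proteins sequester eIF4E until mTORC1 phosphorylates them, and at eIF2, whose phosphorylation by stress kinases blocks its exchange factor eIF2B. The liver makes most plasma proteins and adjusts both controls to feeding. H3K27ac at a gene end describes the chromatin there and is not a measure of mRNA, protein or translation.

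A gene was given the regions that lay within 1000 bp of either of its ends. Of the 53 genes, 48 (90.6%) had such a region in at least 1 library, against 53.7% of all protein-coding genes, those on X and Y included. In all 10 libraries 41 (77.4%) had one, against 34%. No library had a region at Eif3j2, Eif4a3l1, Eif4e1b, Eif4e3 or Eif5a2. The strand was known for 39 of the 48 genes with a region, and in those the region always lay at the start end. For 33 of the 39 no library had a region at the other end, so at those genes all the signal described here came from regions at the start. The exceptions were Eif1, where 1 region covered both ends of a gene only 2151 bp long in 10 libraries, Eif4ebp2 in 8 libraries, Eif2d in 7, Eif3k in 6, Eif4g1 in 5 and Eif4a1 in 1. Regions were shared with a neighbouring gene at 17 of the 48 genes, among them 14 of the 41 with a region in all libraries. For those the signal cannot be assigned to 1 gene.

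The bases ahead of 7 start sites, taken from RefSeq for GRCm38.p6, show the sequence at the gene starts beside which these regions were called. Eif4e and Eif2a are shown because they were among the genes with lower values in old libraries before adjustment. Eif2b5 is shown for the highest log2 difference, Eif3a for the highest signal per kb, Eif5 and Eif4g1 for high summed signal, and Eif4a1 as the helicase partner of Eif4e. Each line holds 120 bases, read 5′ to 3′ toward the gene, that end just before the listed start or, for Eif2b5 and Eif4g1, before the annotated gene end 22 and 7 bases ahead of it. The start used for Eif4e lies 1077 bp inside the annotated gene, since another start is listed ahead of it. The window of that other start, at the gene end, held no E-box and none of the other motifs counted below. Capitals mark matches, on either strand, to an E-box (CACGTG), a GC box (GGGCGG or CCGCCC) and a CCAAT box in either orientation (CCAAT or ATTGG). They also mark part of a cAMP response element (TGACGT or ACGTCA).
Eif4e, chr3:138527148-138527267, plus strand: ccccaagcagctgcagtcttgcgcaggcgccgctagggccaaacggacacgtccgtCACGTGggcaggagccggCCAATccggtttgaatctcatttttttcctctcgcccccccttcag
Eif4a1, chr11:69672424-69672543, minus strand: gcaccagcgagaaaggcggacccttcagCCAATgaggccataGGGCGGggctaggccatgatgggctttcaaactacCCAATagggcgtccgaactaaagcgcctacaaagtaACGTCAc
Eif4g1, chr16:20672600-20672719, plus strand: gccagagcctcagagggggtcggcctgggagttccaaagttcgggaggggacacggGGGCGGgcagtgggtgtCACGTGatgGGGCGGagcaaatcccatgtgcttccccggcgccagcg
Eif3a, chr19:60790694-60790813, minus strand: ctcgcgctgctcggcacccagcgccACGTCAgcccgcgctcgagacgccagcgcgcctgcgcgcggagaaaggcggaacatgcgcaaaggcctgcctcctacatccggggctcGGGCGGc
Eif5, chr12:111537981-111538100, plus strand: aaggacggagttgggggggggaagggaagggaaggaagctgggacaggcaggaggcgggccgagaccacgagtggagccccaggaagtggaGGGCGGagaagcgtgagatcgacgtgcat
Eif2a, chr3:58525701-58525820, plus strand: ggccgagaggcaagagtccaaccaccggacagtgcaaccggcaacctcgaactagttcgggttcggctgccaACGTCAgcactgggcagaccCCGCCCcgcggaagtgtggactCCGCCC
Eif2b5, chr16:20498675-20498794, plus strand: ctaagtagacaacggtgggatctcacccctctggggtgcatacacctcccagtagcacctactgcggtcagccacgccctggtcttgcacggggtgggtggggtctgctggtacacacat

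The E-box stood in the printed bases of Eif4e and Eif4g1. No marked motif stood in those of Eif2b5, whose CCAAT box lies elsewhere in its window. Counts used the whole RefSeq window, 250 bases before to 50 after each listed start, with both strands searched and overlapping matches of different motifs allowed. A window was listed for 41 of the 53 genes, not the same 41 as those with a region in all 10 libraries. Those with a window included Eif4a3l1 and Eif5a2, without a region in any library. Also included were Eif1ad, Eif2ak2, Eif2b2, Eif3g and Eif4g3, with a region in only some libraries. The E-box, a site bound by MYC, USF and related factors, was in the windows of 10 of these 41 genes (24.4%): Eif1b, Eif3a, Eif3f, Eif3k, Eif4a1, Eif4e, Eif4g1, Eif4h, Eif5a and Eif5a2. It was in 8.9% of 17451 other genes and in 12.2% of the 6070 other genes with a region in all 10 libraries. No such region filter was applied to the initiation factor genes. The ETS motif (CCGGAAG or CTTCCGG) was in 15 of the 41 (36.6%), against 12.9% and 22.0%. The GC box was in 30 (73.2%), against 49.2% and 67.5%. The cAMP response element part was in 8 (19.5%), against 9.6% and 15.3%. Shares were nearer to those of the other acetylated genes for the NRF1 core (GCGCATGC, 7.3% against 6.7%) and the YY1 core (AAGATGG, 9.8% against 8.9%). The same held for the CCAAT box in either orientation (39% against 43.1%) and TATAAA (7.3% against 9.0%). The median GC content of the listed windows was 62.2%, against 60.7% for those of the other acetylated genes and 56.3% for all other genes. These shares are descriptions of letters and carry no test, and a match is not a bound site.

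The libraries held 21213 to 30195 regions from 6295930 to 15544145 tags. The share of tags that fell in regions, named IP efficiency in the file headers, was 34.63 to 48.23% in young and 24.53 to 35.84% in old libraries. Young replicate 5 stood apart in depth and in its estimated fragment length (620 bp, against 414 to 444 bp), and old replicate 5 had the lowest IP efficiency. The hepatocyte label held: 9 of 10 hepatocyte markers had a region in every library, and their summed signal was 5715 to 7440 scaled tags in young and 2454 to 5027 in old libraries. None of 6 macrophage markers had a region in any library. Of 6 genes each, 3 endothelial, 5 lymphocyte, 5 stellate and 4 cholangiocyte markers had none, and of these lists only the cholangiocyte gene Sox9 had a region in every library. Their other genes had one in some: Reln in 4 young and 5 old libraries, Cd79a in 3 and 5, Lyve1 in 4 and 4, Spp1 in 2 and 2. Stab2 and Clec4g each had one in 1 old library. The summed signal of those lists in young and old libraries was 0 to 26.3 and 0 to 57.8, 0 to 203.5 and 52.4 to 139.6, 0 to 144.0 and 44.5 to 103.1, and 253 to 580 and 222 to 520 scaled tags. In bulk samples, fewer acetylated cells and less acetylation per cell cannot be told apart.

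Among acetylated gene ends the initiation factor genes were of ordinary size and somewhat dense signal. The 41 genes with a region in every library had a median of 320 scaled tags (mean of 10 libraries, range 69.5 to 871), against 270 for the other gene ends tested. The median called length was 2644 bp against 2578 bp. Per length the median was 113 scaled tags per kb against 99.3, and 29 of the 41 (70.7%) lay above the median of the others. Per kb the highest were Eif3a, the largest scaffold subunit of eIF3, at 195 ± 25.9 (SD over 10 libraries), Eif5a, whose product relieves stalled ribosomes during elongation, at 188 ± 44.1, Eif4e2, a cap-binding homolog that represses translation, at 182 ± 33.7, and Eif4e, the cap-binding protein itself, at 179 ± 51.2. These 4 lay within their spread of one another. The lowest were Eif4ebp3 at 42.3 ± 11.6, Eif2d, which can deliver initiator tRNA without eIF2, at 42.9 ± 9.85, Eif2b1 at 46.0 ± 10.3 and Eif2b5 at 47.6 ± 14.5, and these also overlapped one another. The summed signal was highest at Eif6, Eif5, Eif4g1, Eif1 and Eif5a and lowest at Eif2b1, Eif3l, Eif2b5, Eif3f and Eif3k. Fold over input was taken here as total tags over input tags, each summed over a gene's regions in a library. It averaged between 5.9 (Eif2b5) and 21.3 (Eif3a).

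**Figure D1:**
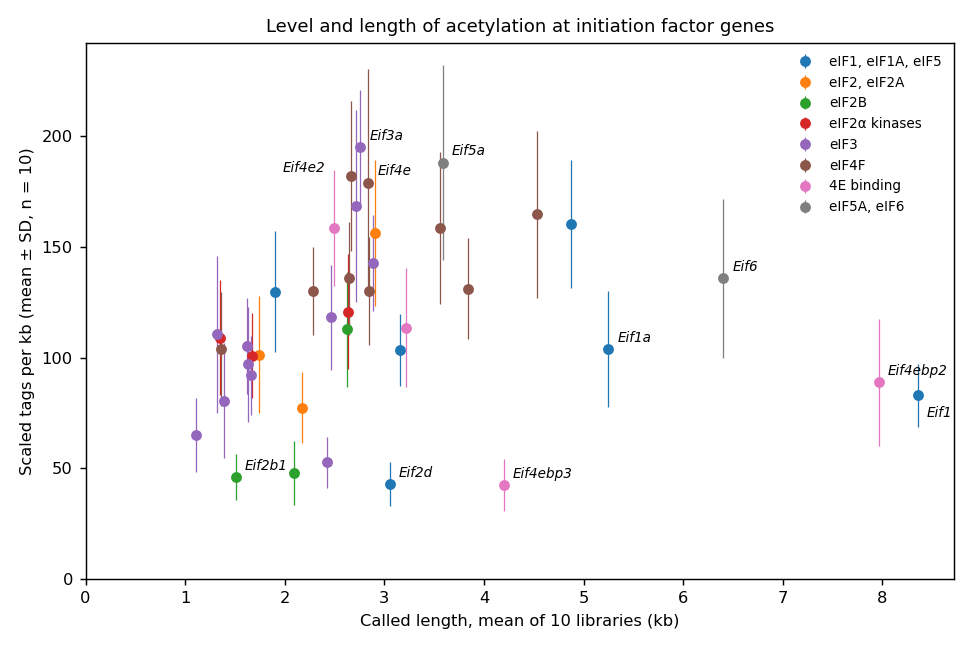
Mean scaled tags per kb of called region (vertical axis, bars are SD over 10 libraries) against the mean called length in kb for the 41 initiation factor genes with a region in every library. Colours give the group in which each gene was placed. Eif3a, Eif5a, Eif4e2 and Eif4e are highest at 179 to 195 scaled tags per kb, and the largest called lengths, near 8 kb, belong to Eif1 and to Eif4ebp2, where up to 3 regions are summed.

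Summed over all the genes, young libraries held more signal. The summed scaled tags were 17168 ± 2640 (SD, n = 5) in young libraries and 12517 ± 1682 (SD, n = 5) in old ones, a ratio of 0.729. The values were 15541, 20809, 15968, 19020 and 14501 in young and 12370, 14449, 13933, 11378 and 10452 in old replicates 1 to 5, so every old library lay below every young one. The called length was 142 ± 11.1 kb and 118 ± 11.7 kb, and the signal per length 121 ± 17.2 and 106 ± 8.33 scaled tags per kb, both with overlap. All gene-end regions together showed a ratio of 0.772, and IP efficiency was lower in old libraries too. As a share of all gene-end tags the genes held 0.683 ± 0.0489% in young and 0.642 ± 0.0319% in old libraries. These shares overlapped, from 0.635 to 0.737% in young and from 0.595 to 0.678% in old. A general difference in acetylation cannot be told apart from one in recovery, since values scaled to the added human chromatin were not analysed here.

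**Figure D2:**
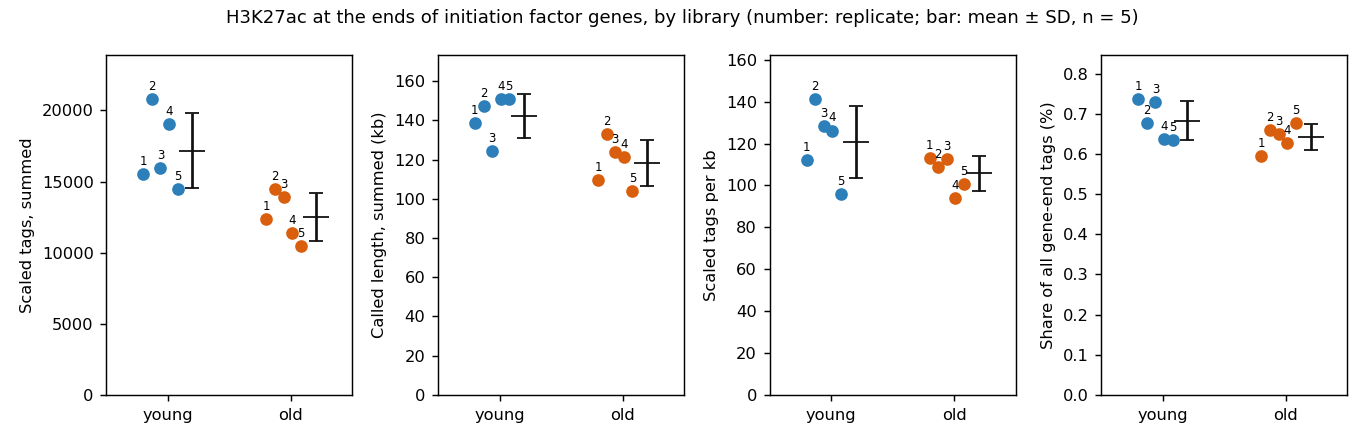
Summed scaled tags, summed called length in kb, scaled tags per kb and share of all gene-end tags in percent for the initiation factor genes, with 1 point per library (numbered by replicate) and mean ± SD for 5 young and 5 old libraries. The 2 groups separate in summed tags (lowest young 14501, highest old 14449) and overlap in the other 3 quantities.

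Differences of single genes were therefore read relative to the median gene end. For each gene end with a region in all 10 libraries (6821 features, counting genes with identical regions once), log2(scaled tags + 1) was centred on the library's median and fitted with limma, with Benjamini-Hochberg adjustment at 0.05 over all features. On this scale 8 of the 6821 features (0.117%) passed, 3 higher and 5 lower in old libraries, and none of the 41 initiation factor genes. At an unadjusted p under 0.05, 4 of the 41 were lower in old libraries (Eif4ebp3, Eif3e, Eif4e and Eif2a), against 6.66% of all features, and none was higher, against 6.44%. edgeR's quasi-likelihood test called 9 of the 6821 features and none of the 41. At an unadjusted p under 0.05 it had 911 of the 6821 features and 4 of the 41. DESeq2 called 144 of the 6821 features and 1 of the 41, Eif4ebp3. The median log2 difference, old minus young, was 0.00 over the 41 genes (21 higher and 20 lower) and 0.01 over the other features. The quartiles were −0.15 and 0.09, and 39 of the 41 genes (95.1%) lay within 0.5 of 0, against 90.5% of the others. The other features were also split by signal level into bins of equal size. Their bin medians, averaged with each bin weighted by its number of initiation factor genes, came to 0.02. Eif4ebp3, described next, was the 1 gene whose centred young and old values did not overlap, against 3.61% of all features.

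**Figure D3:**
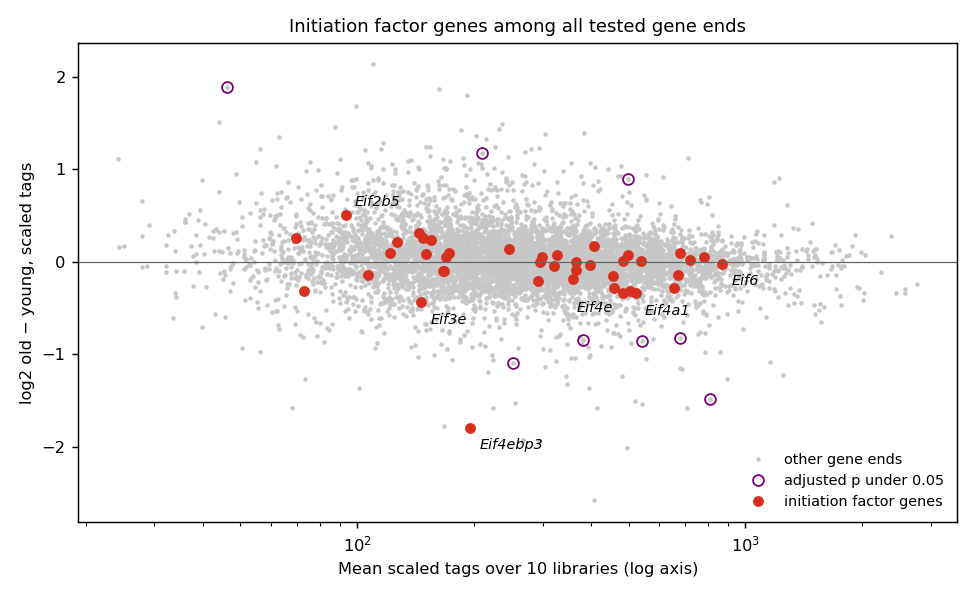
Log2 difference in scaled tags, old minus young, against mean scaled tags over 10 libraries (log axis) for the 6821 tested gene ends, with the 41 initiation factor genes in red and the 8 features with limma adjusted p under 0.05 circled. The red points lie around 0 at all levels except Eif4ebp3 at −1.79 and Eif2b5 at 0.51.

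Without centring, the median of all tested gene ends was −0.36 and that of the 41 genes −0.37, and 40 of the 41 were lower in old libraries. On that scale 7 of the 41 genes had a limma adjusted p under 0.05, all lower in old libraries: Eif4ebp3 (−2.17), Eif3e (−0.81), Eif1a (−0.71), Eif4e (−0.69), Eif3b (−0.58), Eif3j1 (−0.53) and Eif5a (−0.52). Over all features 753 (11.0%) were lower and 5 higher. In 6 of these genes, all but Eif1a, every old library lay below every young one in scaled tags, against 11.8% of features. The counts of the initiation factor genes were thus 7 and 6 of 41 beside these shares, and the IP efficiency and the hepatocyte markers moved in the same direction. With the IP efficiency as a covariate on the centred scale limma called 1 feature and none of the 41, and the part of the hepatocyte markers was not tested. Of the 9 hepatocyte markers tested, all were lower in old libraries on the centred scale, with a median of −0.39, and none was called.

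Of the 4E-binding proteins, which hold back cap-dependent initiation, all 4 were tested, and all 4 had negative log2 differences, with a median of −0.19 and none called. Eif4ebp3 (chromosome 18, 36664060 to 36666324) stood farthest from 0. Its scaled tags were 162.5, 396.2, 410.7, 351.2 and 237.1 in young and 71.1, 99.5, 159.1, 48.2 and 20.6 in old replicates 1 to 5. The groups did not overlap, although young replicate 1 and old replicate 3 nearly met. The means were 312 ± 108 and 79.7 ± 53.1 (SD, n = 5 each), and the log2 difference relative to the median gene end was −1.79 (SE 0.40, limma adjusted p = 0.109). DESeq2 gave −1.63 with an adjusted p of 0.0026, edgeR's quasi-likelihood test −1.62 with 0.112. With the IP efficiency as a covariate the limma difference was −1.25 (adjusted p = 0.445), and without young replicate 5 and old replicate 5 it was −1.50 (adjusted p = 0.242). Called length averaged 6266 ± 1224 bp in young and 2129 ± 1160 bp in old libraries, a log2 difference of −1.61 (limma adjusted p = 0.273), and scaled tags per kb differed by −0.19 (limma adjusted p = 0.784). The region was shared with Sra1, the gene of a steroid receptor RNA activator, in 3 young and 3 old libraries, where the shared regions held 68.5% of the tags of Eif4ebp3 in all 10 libraries, and with Ankhd1 in 1 young library. Sra1, with those shared regions included, had a log2 difference of −0.78 (limma adjusted p = 0.368).

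Eif4ebp2 had the second largest called length of the 41 genes, summed over up to 3 regions at both of its ends. Its scaled tags were 667.6, 1057.4, 752.6, 826.4 and 638.2 in young and 418.0, 695.2, 732.6, 282.6 and 469.4 in old replicates, with overlap (log2 difference −0.29, limma adjusted p = 0.557). Without old replicate 4 the difference was −0.12, and with the strongest consensus region alone it was 0.08. Called length was 7993 to 11924 bp in young libraries, and in old libraries it was 2543 and 2935 bp in replicates 1 and 4 and 7535 to 9066 bp in the other 3. Regions shared with Nodal, present in 5 young and 3 old libraries, held 39.6% of its tags, and the signal per kb differed by 0.43 (limma adjusted p = 0.577). Eif4ebp1, the best studied of these proteins, was at −0.09 and Eif4enif1, the eIF4E transporter, at −0.03, the latter in a region shared with Sfi1 and Gm51877.

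Among the 12 genes of eIF4F and its relatives, 9 were tested, 5 higher and 4 lower in old libraries, with a median of 0.00. Eif4e (chromosome 3, 138526191 to 138559696) has 2 listed starts. The E-box printed above stands ahead of the inner one, and the window of the start at the gene end held none. Eif4e had scaled tags of 650.0, 750.4, 630.7, 618.9 and 475.1 in young and 366.8, 426.0, 443.3, 334.0 and 359.8 in old replicates. Uncentred, every old value lay below every young one, the closest being young replicate 5. Relative to the median gene end the groups overlapped, with a log2 difference of −0.31 (SE 0.13, limma adjusted p = 0.316). Its called length differed by 0.01 (SE 0.12) and its signal per kb by −0.32 (limma adjusted p = 0.527).

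Eif4a1 (chromosome 11, 69666936 to 69672423), the major DEAD-box helicase of the complex, showed the opposite makeup. Its scaled tags were 1005.0, 680.2, 527.8, 565.1 and 479.9 in young and 374.8, 561.1, 409.3, 318.1 and 298.6 in old replicates, and the groups overlapped through old replicate 2. The called length in young replicate 1 was 9980 bp, against 2176 to 4287 bp in the other 9 libraries, because a further region shared with Mpdu1 and Cd68 was called at the far end. The log2 difference was −0.34 (limma adjusted p = 0.533) in summed signal and 0.29 (limma adjusted p = 0.659) in signal per kb. Without young replicate 1 it was −0.11. Senp3 shared the promoter region of Eif4a1 in all 10 libraries.

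The remaining cap-complex genes lay on both sides of the median gene end. The scaffold Eif4g1 was at 0.02, its non-canonical relative Eif4g2 at 0.08 and the helicase Eif4a2 at 0.00. The helicase cofactors Eif4b and Eif4h were at −0.01 and −0.18, and Eif4e2 at 0.01. Eif4a3, a helicase of the exon junction complex, was highest at 0.31 (limma adjusted p = 0.717), with 43.6 scaled tags in young replicate 1 and 106.0 to 225.1 in the other 9 libraries. Without young replicate 1 its difference was −0.03. Eif4g3 had a region in 2 young and 3 old libraries.

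**Figure D4:**
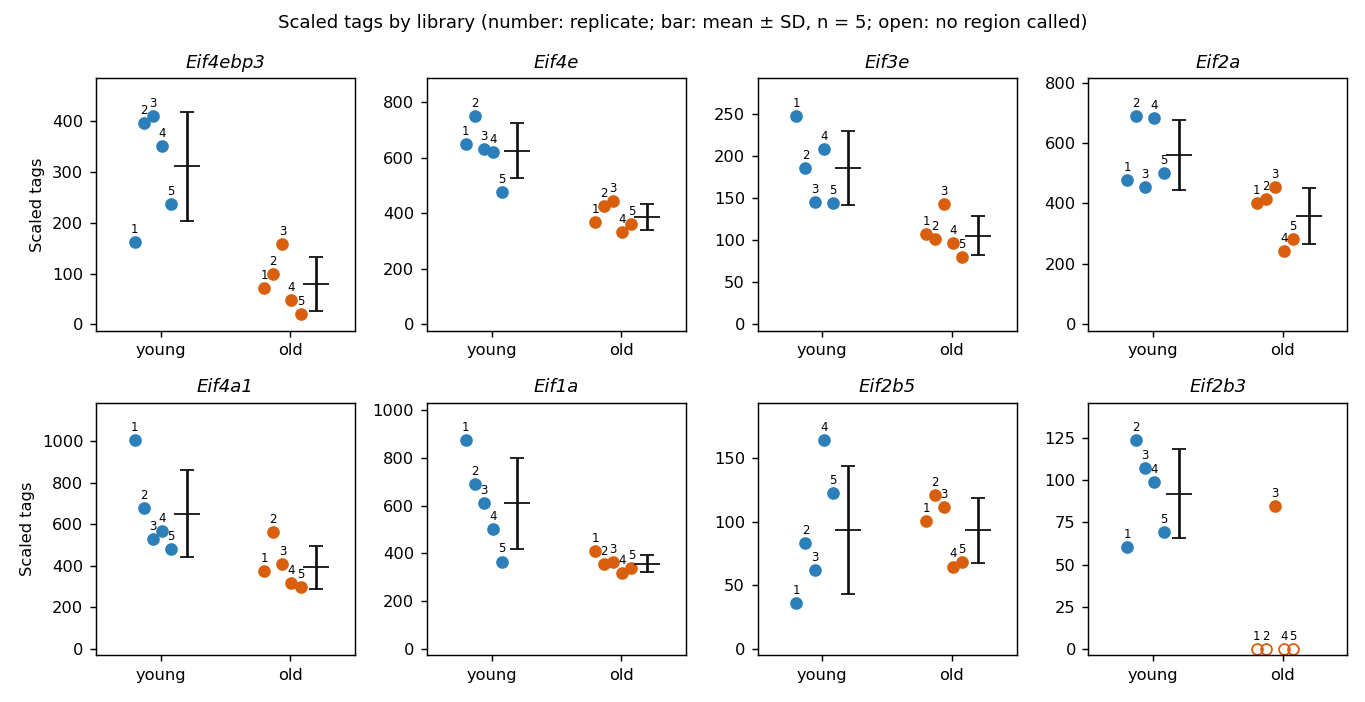
Scaled tags in each library (numbered by replicate) at the ends of 8 initiation factor genes, with mean ± SD over 5 young and 5 old libraries where all had a region; open circles mark libraries without a called region. Eif4ebp3, Eif4e and Eif3e show every old value below every young one, whereas the values of Eif2b5 overlap throughout.

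The eIF3 complex, which binds the small subunit and keeps it apart from the large one, had 11 of its 14 genes tested, 5 higher and 6 lower, with a median of −0.09. Eif3e (chromosome 15, 43250040 to 43282736) was lowest, with scaled tags of 248.0, 186.6, 145.1, 208.1 and 144.7 in young and 107.0, 101.0, 142.7, 96.5 and 80.2 in old replicates. The uncentred groups did not overlap, but old replicate 3 lay just below young replicate 5. Its log2 difference was −0.44 (SE 0.19, limma adjusted p = 0.375), with −0.42 in signal per kb (limma adjusted p = 0.495) and −0.02 in length. Without young replicate 1 it was −0.27. Eif3c was highest at 0.23 (limma adjusted p = 0.549). The large subunits Eif3a and Eif3b were at 0.01 and −0.20, Eif3d, a subunit that can itself bind the cap, at 0.17, and the loosely held Eif3j1 at −0.15. Eif3f was at −0.15, Eif3h at −0.09 and Eif3m at 0.08. The faint Eif3l (27.8 to 118.9 scaled tags) was at −0.31 and Eif3k, which shared 75.7% of its tags with Map4k1, at 0.10, both with an SE above 0.30. Leaving out 1 library moved Eif3l between −0.13 (without young replicate 1) and −0.56 (without young replicate 3), and Eif3f between −0.08 and −0.25 (without the same libraries). Eif3g and Eif3i had a region in 4 young and 5 old libraries each.

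The autosomal genes of eIF2, the carrier of the initiator tRNA, and the gene of eIF2A, an alternative carrier, were tested. The genes of the gamma subunit of eIF2 are sex-linked and were left out by the rule, as was any other sex-linked gene with such a symbol. Eif2a (chromosome 3, 58525821 to 58557501) had scaled tags of 477.3, 689.4, 453.6, 683.3 and 500.5 in young and 400.7, 414.3, 454.0, 241.8 and 281.9 in old replicates, with contact only between young replicate 3 and old replicate 3. Its log2 difference was −0.29 (SE 0.12, limma adjusted p = 0.345), and −0.18 without old replicate 4. All of this signal lay in a region shared with Serp1, a stress-associated protein of the endoplasmic reticulum. The alpha subunit gene Eif2s1, which shared its region with Atp6v1d, was at −0.10 and the beta subunit gene Eif2s2 at 0.09.

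The exchange factor eIF2B had 3 of 5 genes tested, all with positive log2 differences in summed signal (median 0.25, none called). In signal per kb all 3 were negative (median −0.09), and without centring Eif2b1 (−0.12) and Eif2b4 (−0.32) were negative too. Eif2b5 (chromosome 16, 20498795 to 20509325), the catalytic subunit and the highest of all 41 genes, had scaled tags of 36.2, 82.9, 62.0, 164.1 and 122.6 in young and 100.3, 120.8, 111.3, 64.7 and 68.3 in old replicates. The old values lay within the young range, and the log2 difference was 0.51 (SE 0.31, limma adjusted p = 0.502). It was 0.27 without young replicate 1 and −0.02 with the strongest consensus region in place of the sum. Called length was 769 to 1143 bp in young replicates 1 to 3 and 2025 to 3299 bp in all other libraries (log2 difference 0.80, limma adjusted p = 0.613), while signal per kb was at −0.28. Its 120 printed bases held none of the marked motifs, although its whole RefSeq window held a CCAAT box (CCAAT or ATTGG). Eif2b1, shared with Gtf2h3, was at 0.25 and Eif2b4, shared with Snx17, at 0.05.

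Eif2b3 and Eif2b2 were the eIF2B genes without a region in every library. Eif2b3 (chromosome 4, 117019399 to 117086852) had a region in all 5 young libraries, with 60.6, 123.8, 107.6, 99.1 and 69.2 scaled tags, and in 1 of 5 old libraries, with 84.9 in replicate 3. A region that was not called can still hold tags under the caller's threshold, so these are differences in calling. Fisher's exact test, two-sided, gave p = 0.0476, adjusted to 1.0 over the 4051 features with a region in 1 to 9 libraries, of which 0.568% had an unadjusted p under 0.05. Among the 7 initiation factor genes of this kind Eif2b3 was the 1 below it. Eif2b2 had a region in 4 young and 4 old libraries, the interferon-induced kinase gene Eif2ak2 in 5 and 4, and Eif1ad in 3 and 5.

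The kinases that phosphorylate eIF2 had 3 of 4 genes tested. Eif2ak4, the amino acid sensor GCN2, was at 0.26 (limma adjusted p = 0.647), with 0.10 without young replicate 1 and 0.43 without old replicate 4. Eif2ak1, the heme-regulated kinase, was at 0.05 and Eif2ak3, the endoplasmic reticulum kinase PERK, at −0.05. Eif2d and Eif1ad were placed with the factors of start codon selection and subunit joining, although Eif2d acts in tRNA delivery. Of this mixed group 6 of 7 were tested, 5 higher and 1 lower, with a median of 0.09. Eif2d was highest at 0.21 (SE 0.47, limma adjusted p = 0.874), and Eif1, Eif1b, Eif5 and Eif5b lay between 0.05 and 0.14. Eif1a, in a region shared with Tmed7 in every library, was lowest at −0.34 (limma adjusted p = 0.535). Its scaled tags were 873.6, 691.1, 611.6, 503.4 and 365.4 in young and 409.4, 352.9, 364.1, 318.6 and 339.1 in old replicates, and the groups overlapped through young replicate 5 and old replicate 1. Its called length was 13348, 6775 and 9003 bp in young replicates 1 to 3 and 2644 to 3954 bp in the other 7 libraries. Signal per kb differed by 0.51 (limma adjusted p = 0.505), and without young replicate 1 the difference in summed signal was −0.13. Eif5a was at −0.14 (limma adjusted p = 0.517). Eif6, which keeps the ribosomal subunits apart and had the highest summed signal of all, was at −0.02. Regions shared with Mmp24 and BC029722 in all 10 libraries held 50.5% of its tags, and regions shared with Fam83c in 7 libraries held 37.0%.

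**Figure D5:**
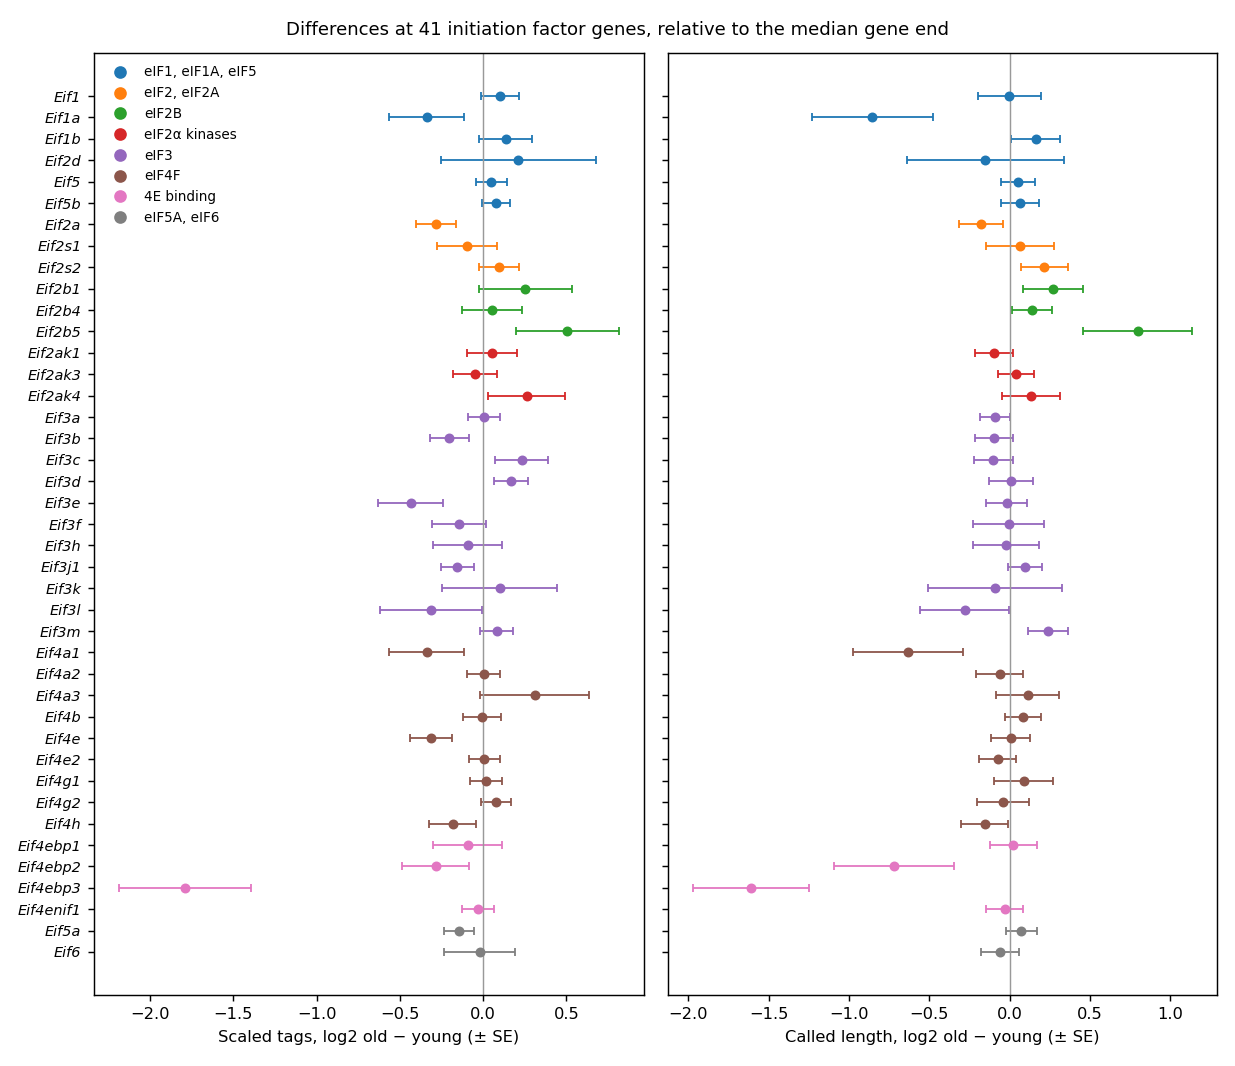
Log2 differences, old minus young, of scaled tags and of called length, each relative to the median gene end with its limma SE, for the 41 initiation factor genes. Colours give the group in which each gene was placed. Most points lie within 0.5 of 0, and the genes farthest from 0 in scaled tags, Eif4ebp3 and Eif2b5, also lie far from 0 in called length.

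In called length, 1 of the 6821 features (0.0147%) passed at a limma adjusted p under 0.05, and none of the 41 genes. At an unadjusted p under 0.05 there were 3 of the 41 (Eif4ebp3, Eif1a and Eif2b5), against 7.83% of features. The median length difference was −0.01 over the 41 genes and 0.02 over the others, and in signal per kb the medians were −0.02 and 0.01. Across the 41 genes the differences in length and in summed signal had a Pearson r of 0.837 and a Spearman rho of 0.549, given as a description, since both come from the same regions and genes are not independent replicates.

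Neighbouring pathways were described by lists, none of whose genes passed on the centred scale. Of 23 genes of cap and mTORC1 control, 16 were tested, 8 higher and 8 lower (median −0.01). The highest was Larp1, a repressor of mRNAs for the translation machinery, at 0.40 (limma adjusted p = 0.370), and the lowest Deptor, an mTOR inhibitor, at −0.48 (limma adjusted p = 0.355). Of 14 genes of the integrated stress response, 8 were tested, 6 higher and 2 lower (median 0.11). They ran from the phosphatase subunit Ppp1r15b at −0.24 (limma adjusted p = 0.375) to the transcription factor Atf4 at 0.28 (limma adjusted p = 0.306). Of 15 genes listed under elongation, termination and recycling, 13 were tested, 3 higher and 10 lower (median −0.20). The highest was Eefsec, the selenocysteine elongation factor, at 0.20 (limma adjusted p = 0.515). The lowest was Dhx29, in a region shared with Mtrex, at −0.48 (limma adjusted p = 0.411). Dhx29 encodes a helicase of initiation, so the counts and median of this list include a gene outside its name. Over all features the median was 0.01, with 48.07% lower.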

How the data were processed

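H3K27ac region lists of 10 libraries were used; the 10 input samples entered only through the input values inside those lists. HOMER called the regions in histone style on each library alone, per the file headers (peak size 500 bp, minimum distance 1000 bp, at least 4.0-fold over input, Poisson p under 1e-04). The submitters' processing notes name mm10 as the build, and no aligner is given in the sources used here. As deposited, the lists hold a signal per region (tags scaled to 10000000 per library), its length in bp, a region score, total tags (estimated counts in steps of 0.5), the input coverage signal and a fold ratio over input. A library's total of 6295930 to 15544145 tags limits the precision of faint regions, and a gene without a called region can still hold tags.

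From these values, per gene and library, scaled tags and lengths of regions within 1000 bp of either gene end were summed. Genes with identical regions in every library were taken as 1 feature, and genes on X and Y were kept among the other features. Features with a region in all 10 libraries (6821 of 10872) were tested on log2(scaled tags + 1), centred on each library's median, with limma 3.58.1 (trend, Benjamini-Hochberg at 0.05), 5 young against 5 old, without covariates. A fold on this scale understates changes of low values. The procedure was checked on simulated data with independent normal spread. These held no age difference in IP efficiency and no shared regions, so the check does not cover either. Alternatives were edgeR 4.0.16 and DESeq2 1.42.0 on total tags rounded to whole numbers, other units, scalings, filters, region rules, an IP efficiency covariate, a replicate block and leaving out libraries. R was 4.3.3 and Python 3.11.15. Named genes were those past a threshold or without overlap, the 12 with the largest differences, the 5 highest and 5 lowest in signal, genes without a region in every library, and the highest and lowest of each list. Eif3h and the printed promoters were picked with their values seen. The members, lists and tests were chosen with earlier results of these data known.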

Additional observations from a re-analysis of the deposited data

Results flagged for a closer look

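The scaled tags of each gene by age gave 92 groups of up to 5 libraries, a few with a library without a region. Of the 92 groups, 1 held a library far from the others by Dixon's criterion. Eif3h, a subunit of eIF3, had 117.1 scaled tags in young replicate 3 and 199.8 to 227.6 in the other 4 young libraries, a gap of 0.748 of the range against a critical value of 0.71. Chance flags about 1 in 20 groups, or 4.6 of these. The old libraries had 139 ± 27.7 scaled tags at Eif3h (SD, n = 5).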

How the results depend on the processing

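Over all gene ends 8 features were called in signal. The count was 0 on tags per kb (584 at an unadjusted limma p under 0.05), 758 without centring, 14 with cyclic loess scaling, 3 with a region in at least 5 libraries, 14 for regions overlapping the end itself, 0 for regions scoring at or above the median (74 at an unadjusted limma p under 0.05), 144 with DESeq2, 1 with IP efficiency as covariate, 1 with the replicate block and 5 without young replicate 5 and old replicate 5, a choice made after seeing the data. Leaving out 1 library gave 3 to 17. Among the members 0 were called, but 7 without centring and 1 with DESeq2 (Eif4ebp3), and the replicate block called none. The member median was 0.00, but −0.37 without centring. In length 1 feature was called, 5 without centring, 0 for regions scoring at or above the median, 2 with the strongest consensus region, 0 with the covariate, 0 with the replicate block and 1 to 5 without 1 library. Same-numbered young and old libraries deviated little together (correlations from −0.05 to 0.132). Of the 5 young libraries, 2 correlated best with their own number. Such correlations cannot show whether same-numbered samples were prepared together. For the 19 members named by rule, 384 of 430 alternatives kept direction and call, 6 gained a call and 40 changed sign; the cause was not tested. Signs changed per kb for Eif1a (0.51), Eif2b1 (−0.01), Eif2b5 (−0.28), Eif4a1 (0.29), Eif4ebp2 (0.43), Eif4g1 (−0.0696), Eif5 (−0.0041) and Eif6 (0.0398). Without centring they changed for Eif1 (−0.28), Eif2ak4 (−0.11), Eif2b1 (−0.12), Eif3k (−0.28), Eif4a3 (−0.0658), Eif4g1 (−0.36) and Eif5 (−0.33). With the covariate they changed for Eif1 (−0.0002), Eif3l (0.0264) and Eif5 (−0.0501). The strongest consensus region changed Eif2b5 (−0.0187), Eif3k (−0.13), Eif4ebp2 (0.08), Eif4g1 (−0.0125) and Eif6 (0.13). A region in at least 5 libraries changed Eif4g1 (−0.0409) and Eif5 (−0.0092), edgeR Eif4g1 (−0.0032), and loess Eif6 (0.0103). Leaving out 1 library spanned −0.021 to 0.36 for Eif2b1, −0.12 to 0.34 for Eif3k, −0.0349 to 0.43 for Eif4a3, −0.0566 to 0.0461 for Eif4g1, −0.008 to 0.10 for Eif5, −0.18 to 0.10 for Eif6 and −2.08 to −1.46 for Eif4ebp3 (limma adjusted p 0.0628 to 0.257).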
